A study of Mus musculus with 5 samples.

Results

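The replication-dependent histone genes were taken as every row of the deposited gene table whose mouse symbol begins with Hist1h, Hist2h, Hist3h or Hist4h, which gave 68 of 51912 genes. Of these, 54 lie on chromosome 13, 10 on chromosome 3, 3 on chromosome 11 and 1 on chromosome 6. The annotation lists 65 as protein coding and 3 as pseudogenes. They comprise 6 genes for the linker histone H1 and, for the core histones, 20 H2A, 17 H2B, 12 H3 and 13 H4 genes. RNA sequencing libraries came from C57BL/6 mice of the sham group (2 libraries) and the stroke group (3 libraries). In the stroke model a filament closed the middle cerebral artery for 30 minutes under ketamine and xylazine, and animals were kept when cerebral blood flow dropped by 80% or more. Motor function was scored 24 hours later. The sources used here do not give the tissue, the sampling time, the age of the mice or the steps of the sham operation. No gene was altered in either group as far as the labels say. Nothing states that the libraries came from separate animals, so p-values measure only the spread between these libraries.

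Histone proteins package DNA: H2A, H2B, H3 and H4 form the core of the nucleosome, and H1 binds the DNA between cores. Most replication-dependent histone messages are made in S phase, carry no introns and end in a conserved stem-loop instead of a poly(A) tail. The stem-loop binding protein SLBP and the U7 small nuclear RNP direct the cut behind the stem-loop. Some of these genes also give polyadenylated messages, which have been described in differentiated cells. The library kit captured polyadenylated RNA, per the labels' protocols, so a message without a tail is read from such a library only in part or not at all.

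The stem-loop is shown for 5 genes read mostly in 1 sham library and for 3 genes read alike in all libraries, to show that the element is shared by both sets. The pattern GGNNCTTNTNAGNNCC with complementary arms was searched on the transcript strand. Arms of 6 bases are in capitals around a loop of 4, with 5 flanking bases on each side, in GRCm38 from the GENCODE M21 transcripts.
Hist1h4h: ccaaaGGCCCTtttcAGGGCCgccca (chr13:23531453-23531478, plus strand)
Hist4h4: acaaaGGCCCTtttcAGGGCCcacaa (chr6:136803993-136804018, minus strand)
Hist1h4d: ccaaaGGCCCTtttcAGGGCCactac (chr13:23581945-23581970, plus strand)
Hist1h2bb: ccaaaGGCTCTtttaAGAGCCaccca (chr13:23747198-23747223, plus strand)
Hist1h1d: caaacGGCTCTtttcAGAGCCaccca (chr13:23555782-23555807, plus strand)
Hist1h1c: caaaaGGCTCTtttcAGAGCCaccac (chr13:23739507-23739532, plus strand)
Hist3h2a: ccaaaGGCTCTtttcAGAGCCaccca (chr11:58955167-58955192, plus strand)
Hist3h2ba: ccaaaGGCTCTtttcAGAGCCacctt (chr11:58949344-58949369, plus strand)
The 3 H4 genes shown carry the same arms, and all 5 H1, H2A and H2B genes shown carry another pair. The pattern was found in 44 members, against 55 of 21901 protein coding genes in all (0.251%). Where an annotated transcript stops before the element it cannot be found, so its absence from these letters says nothing about the message.

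The other kind of end, a poly(A) signal, is shown for 5 genes read alike in all libraries, and for Hist4h4, which was read mostly in 1. Hist1h4h and Hist1h4a, also read mostly in that library, and Hist2h4, Hist1h4i and Hist1h4j carry a signal too and are not shown. The signal, AATAAA or ATTAAA, was searched on the transcript strand in the last 50 bases of each annotated transcript and is in capitals.
Hist1h1c: atgcttctAATAAAaagcgtttagtttt (chr13:23740334-23740361, plus strand)
Hist3h2a: atatgcccAATAAAataagagtacgtgt (chr11:58956789-58956816, plus strand)
Hist3h2ba: atggtattAATAAAtttggttcaatttt (chr11:58949499-58949526, plus strand)
Hist2h2be: ttattattAATAAAgttaccgattagtt (chr3:96223709-96223736, plus strand)
Hist1h2be: tgttccttATTAAAgcattcctgattga (chr13:23583670-23583697, minus strand)
Hist4h4: ggagatgaAATAAAtac (chr6:136801553-136801569, minus strand)
The annotated transcript runs on behind the stem-loop for 840 bases in Hist1h1c, 1643 in Hist3h2a, 1861 in Hist1h2be and 169 in Hist3h2ba. Genes read mostly in 1 sham library had such stretches as well, of 4884 bases in Hist1h1d, 2445 in Hist4h4, 1153 in Hist1h1e and 770 in Hist1h4d. Among protein coding members 17 of 65 had such a signal, against 17058 of 21901 protein coding genes (77.9%).

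The deposited table holds no values per library. Whole reads were recovered for all 58 members with a read, as the only set of 5 whole numbers that gave the deposited mean, fold change and standard error. The size factors, by which the authors' test scales each library, were 1.16, 1.13 and 1.12 in the stroke libraries, numbered here 1 to 3 by size factor and not by label. The sham libraries had 0.945 and 0.734 and are called A and B in that order, so B had the lower size factor. The sources used here do not give the total reads of a library. Normalized reads are reads divided by the size factor. A count of 0 allows up to 3 reads, which is 3.18 normalized reads in sham library A and at most 2.69 in a stroke library, for counting error only.

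A few histone genes were called lower in the stroke group in the authors' deposited test, and nearly all of their difference lay in sham library B. Of the 68 members, 32 had an adjusted p-value, 26 had reads but no adjusted p, and 10 had no read. At an adjusted p below 0.05 in the authors' deposited Wald test (DESeq2), 5 of the 32 were called lower, against 0.786% of all 17420 tested genes. Only 1 member was called higher, against 0.775%. Fold changes, as stroke over sham, were negative for 30 of the 32, against 52.8% of tested genes. Their median log2 fold change was -4.51 in the authors' deposited table, against -0.02 over all tested genes. Standard errors were also wide, with a median of 1.37 on the log2 scale against 0.33.

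The summed reads of all members showed which library stood apart. They came to 1521, 1529 and 1400 normalized reads in the stroke libraries, 1496 in sham library A and 6924 in sham library B. The stroke libraries and sham library A thus lay close together, and sham library B lay 4.67-fold above the stroke mean. At least 1 read was found for 39, 38 and 38 members in the stroke libraries, for 23 in sham library A and for 57 in sham library B. Such bulk RNA cannot tell the number of cells that make histone messages from the amount of message per cell.

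**Figure D1:**
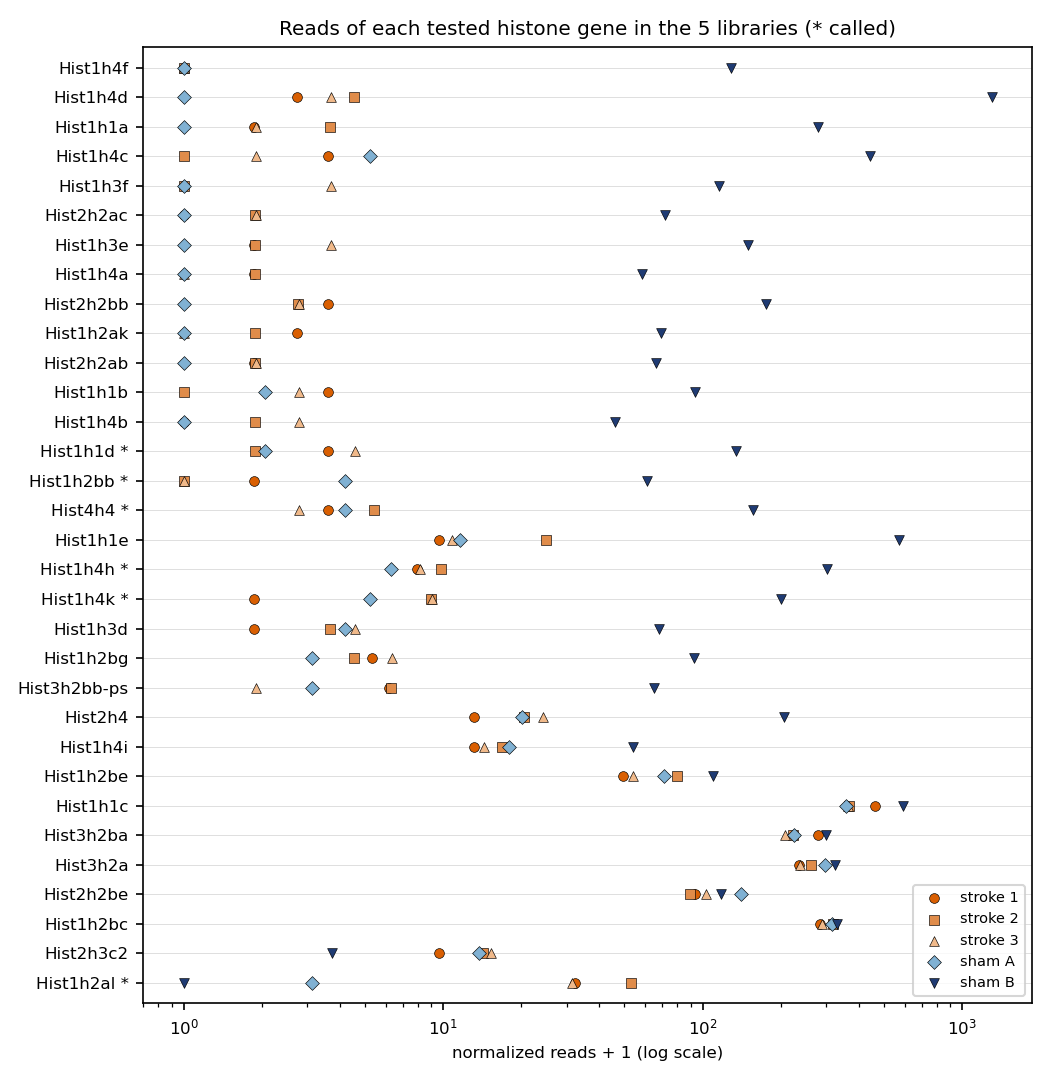
Normalized reads plus 1 (horizontal log axis) of the 32 histone genes with an adjusted p in each of the 5 libraries, ordered by the share held by sham library B. In the upper 22 rows sham library B lies at 45.0 or more, and no other library exceeds 23.9.

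Each of the 5 genes called lower had at least 80% of its normalized reads in sham library B. Hist1h4h, an H4 gene (ENSMUSG00000060981, chr13:23531050-23531519), had 8, 10 and 8 reads in the stroke libraries, 5 in sham library A and 220 in sham library B. Sham library A was the lowest of the 5, so the groups overlapped. Its log2 fold change was -4.32 ± 1.09 (SE) in the authors' deposited table, at an adjusted p of 0.0117. Hist4h4 (ENSMUSG00000096010, chr6:136801553-136804415), the single gene of the Hist4 locus, also encodes H4 and had 3, 5 and 2 reads in stroke against 3 and 114 in sham. Again sham library A lay among the stroke libraries. The log2 fold change of Hist4h4 was -4.75 ± 1.24 (SE) in the authors' deposited table, at an adjusted p of 0.0164. Hist1h4k, another H4 gene, had 1, 9 and 9 reads against 4 and 146, with -4.17 ± 1.24 (SE) as its log2 fold change in the authors' deposited table, at an adjusted p of 0.0474. Only 28.5% of the 50-base stretches of Hist1h4k occur in no other gene's transcript, so reads from near-identical copies cannot be told apart there.

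The remaining genes called lower were an H1 and an H2B gene. Hist1h1d, which encodes a linker histone, had 3, 1 and 4 reads in stroke against 1 in sham library A and 98 in sham library B. Its log2 fold change was -4.83 ± 1.40 (SE) in the authors' deposited table, at an adjusted p of 0.0393. Hist1h2bb had 1, 0 and 0 reads against 3 and 44, with -6.64 ± 1.81 (SE) as its log2 fold change in the authors' deposited table, at an adjusted p of 0.0244. It was the 1 gene of the 5 in which every stroke library lay below both sham libraries, and sham library A was at the level that a count of 0 allows. Of the 32 tested members 5 had groups that did not overlap in this direction, against 16.8% of recovered tested genes. This was thus no more frequent among members. The other 4 were Hist3h2a, Hist2h2be, Hist1h4c and Hist1h4i.

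H4 genes, which encode the most conserved core histone, showed the pattern most often by count, but not by share. At least 80% in sham library B was also reached by 4 of 5 tested H1 and 3 of 4 tested H3 genes. All 10 tested H4 genes had negative fold changes, 3 were called, and 8 had at least 80% of their reads in sham library B. Summed over the class, normalized reads were 40.6, 65.4 and 62.7 in stroke, 57.2 in sham library A and 2917 in sham library B. Hist1h4d (chromosome 13, 23581598 to 23582735) had 2, 4 and 3 reads in stroke, 0 in sham library A and 953 in sham library B. That was the largest count of any member in that library, and 367-fold above the next library in normalized reads. It was nevertheless not called, with -7.94 ± 2.71 (SE) as its log2 fold change in the authors' deposited table, at an adjusted p of 0.126. Hist1h4c had 3, 0 and 1 reads in stroke against 4 and 324 in sham, and missed the threshold with -7.58 ± 2.31 (SE) as its log2 fold change in the authors' deposited table, at an adjusted p of 0.0593.

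Among the other H4 genes, Hist1h4f had no read in any library but sham B, where it had 94. Set against the floor of 3 reads over the stroke group, it was at least 72.7-fold lower than the sham mean, a mean that rests on 1 library. It was not called (adjusted p = 0.458) in the authors' deposited table. Hist1h4a had 1, 1 and 0 reads against 0 and 42, and Hist1h4b 0, 1 and 2 against 0 and 33. Neither was called, and Hist1h4b is uncertain, with 24.1% of its stretches found in no other gene. In 2 H4 genes the excess was smaller. Hist2h4 had 14, 22 and 26 reads in stroke against 18 and 150 in sham, with 73.4% of its normalized reads in sham library B (log2 fold change -2.61 ± 0.86 (SE) and adjusted p 0.106 in the authors' deposited table). Hist1h4i had 14, 18 and 15 reads against 16 and 39, or 47.6% in that library. In normalized reads its value in sham library A, 16.9, lay just above the highest stroke value, 15.9.

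Linker histone genes split into 4 genes of that kind and 1 with reads throughout. Hist1h1e had 10, 27 and 11 reads in stroke, 10 in sham library A and 419 in sham library B, and Hist1h1a had 1, 3 and 1 against 0 and 203. Hist1h1b had 3, 0 and 2 reads against 1 and 68. Sham library A was within the stroke range or, for Hist1h1a, below it. The authors' deposited table gave log2 fold changes of -4.36 ± 1.61, -6.55 ± 2.60 and -5.00 ± 1.57 (SE), with adjusted p-values of 0.186, 0.237 and 0.0735. Hist1h1e overlaps Hist1h2be and the pseudogene Gm11398, all on the minus strand, so reads there could be assigned to either gene or to none, depending on counting rules that the sources used here do not give.

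H3 genes were few but alike, with sums of 13.8, 21.2 and 25.1 normalized reads in stroke, 15.9 in sham library A and 416 in sham library B. Hist1h3e had 1, 1 and 3 reads against 0 and 109, Hist1h3f 0, 0 and 3 against 0 and 84, and Hist1h3d 1, 3 and 4 against 3 and 49. None was called. Hist1h3e, with 26.6% of its stretches found in no other gene, is uncertain. Sham library A lay below the stroke libraries for Hist1h3e, level with the lowest for Hist1h3f and among them for Hist1h3d. Hist2h3c2 was the only H3 gene that did not share the pattern, with 10, 15 and 16 reads in stroke, 12 in sham library A and 2 in sham library B. Its log2 fold change was 0.62 ± 1.05 (SE) in the authors' deposited table, at an adjusted p of 0.95. Only 36.5% of the 50-base stretches of Hist2h3c2 occur in no other gene's transcript, so its assignment among near-identical copies is uncertain.

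H2A and H2B genes were divided. Hist2h2ac, Hist1h2ak and Hist2h2ab, which encode H2A, had 52, 50 and 48 reads in sham library B, 0 in sham library A and at most 2 in any stroke library. Their adjusted p-values were 0.101, 0.153 and 0.119 in the authors' deposited table, and 45.0%, 43.0% and 35.2% of their stretches occur in no other gene. Among H2B genes Hist2h2bb had 3, 2 and 2 reads in stroke against 0 and 128. It shares all its 50-base stretches with other genes' transcripts and is therefore uncertain. Hist1h2bg had 5, 4 and 6 reads against 2 and 67, and the pseudogene Hist3h2bb-ps had 6, 6 and 1 against 2 and 47. Sham library A lay below the stroke range for Hist2h2bb and Hist1h2bg and within it for the pseudogene. Hist3h2bb-ps lies on the minus strand between Hist3h2ba and Hist3h2a, which lie on the plus strand and were read evenly.

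A set of 6 tested genes was read at like levels in all libraries, defined after the values were seen as more than 3 reads everywhere and less than a 3-fold range. Hist1h1c, an H1 gene, had 535, 412 and 403 reads in stroke against 335 and 433 in sham. Hist1h2bc had 326, 360 and 322 reads against 297 and 241. Hist3h2a had 272, 295 and 263 against 278 and 236. After division by the size factors, all 3 stroke values of Hist3h2a, 235, 261 and 236, lay below the sham values of 294 and 322, although by less than the test could separate.

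The other even genes all encode H2B. Hist3h2ba had 320, 251 and 231 reads in stroke against 212 and 218 in sham. Hist2h2be had 107, 100 and 114 against 132 and 86, and in normalized reads its highest library was sham A at 140, unlike the other 5. Hist1h2be had 56, 89 and 59 reads against 66 and 80. None of the 6 was called, with log2 fold changes from -0.57 to -0.12 and standard errors from 0.24 to 0.46 in the authors' deposited table. Their sum was 1397, 1332 and 1247 normalized reads in stroke, 1397 in sham library A and 1763 in sham library B. In the other 62 members the sums were 124, 197 and 153 in stroke, 98.4 in sham library A and 5161 in sham library B. Since the 6 were chosen for a small range over the libraries, the gap between the 2 sets follows from the choice.

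**Figure D2:**
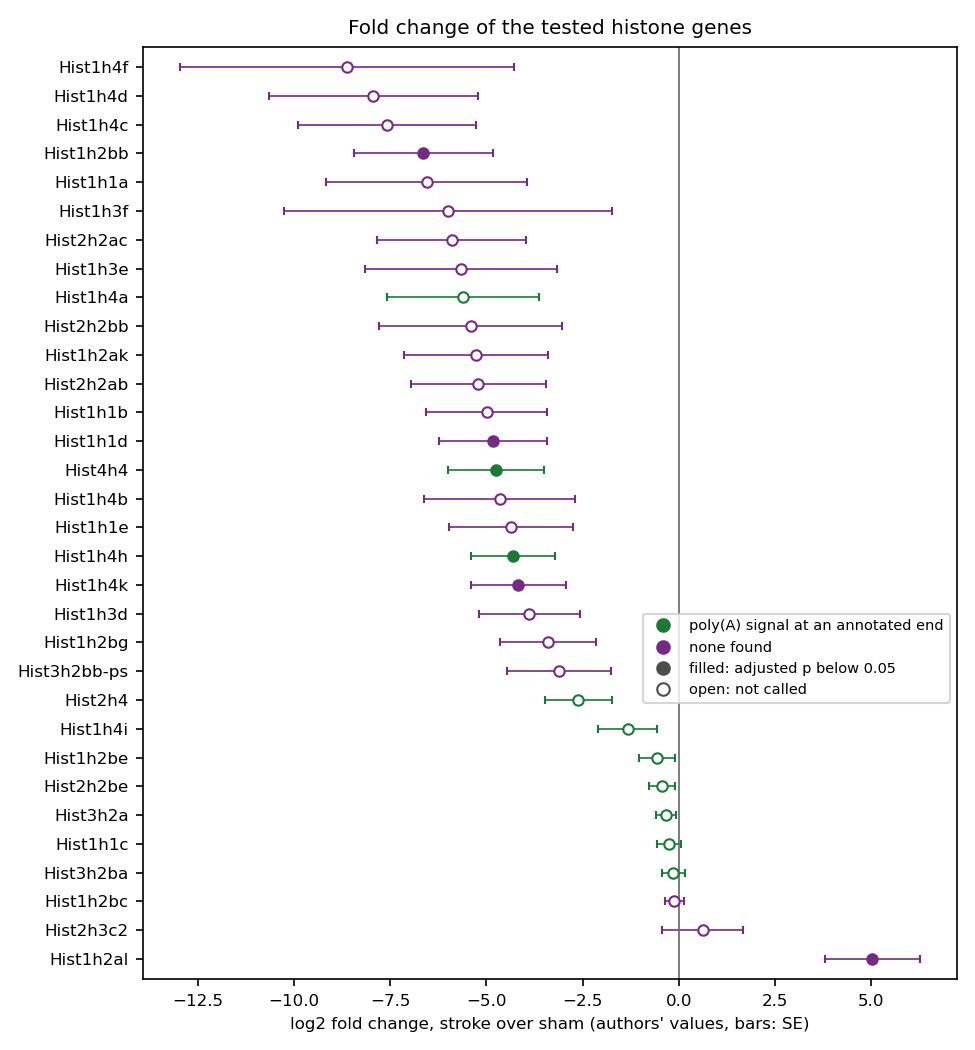
Log2 fold change of stroke over sham with its standard error (horizontal axis, authors' values) for the 32 histone genes with an adjusted p, coloured by whether an annotated transcript end has a poly(A) signal. Filled points passed an adjusted p of 0.05, and the 6 even genes lie between -0.57 and -0.12.

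The annotated ends of the genes were set beside this split. Of the 10 tested protein coding members with a poly(A) signal, 5 were even genes, and Hist2h4 and Hist1h4i had the smaller excess. The last 3, Hist1h4h, Hist4h4 and Hist1h4a, had over 80% of their reads in sham library B. Of the 20 without a signal, 18 had at least 80% there, and the exceptions were Hist1h2bc and Hist2h3c2. Median log2 fold changes were -0.95 with and -5.24 without a signal over the authors' deposited table. The stem-loop did not separate the genes in this way, since 15 of 22 with it and 6 of 8 without it were held by sham library B. A signal, too, can be found only where the annotated transcript reaches it. Some tested members without one have short annotated transcripts, such as Hist1h4k with 312 bases and Hist2h2bb with 381. Its absence there says nothing about the message, and the split depends on the annotation. These are counts over chosen genes that share libraries and sequence, and no test was made.

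The share of a gene's reads in sham library B set the histone genes beside other genes. Over the 32 tested members the median share was 92.2%, against 20.8% over the 6196 recovered genes with an adjusted p. At least 80% was reached by 22 of 32 members, against 5.66% of those genes. Genes received an adjusted p only from a mean of 9.19 normalized reads upward. Among those 22 members, only Hist1h1e lay above this level in its stroke mean (14.1) or in sham library A (10.6). The rest, such as Hist1h4f, had an adjusted p only through their reads in sham library B. The share, the median fold change and the direction among tested members are thus not independent of that cutoff, which the 6196 genes also passed. Another library held 80% of the reads of 0 members. Normalized reads were highest in sham library B for 29 of 32, against 37.8%. The exceptions were Hist2h2be, Hist2h3c2 and Hist1h2al. Recovered genes are those with a mean of up to 150 normalized reads, apart from 24 more abundant members and listed genes, so the comparison says nothing of abundant genes at large.

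**Figure D3:**
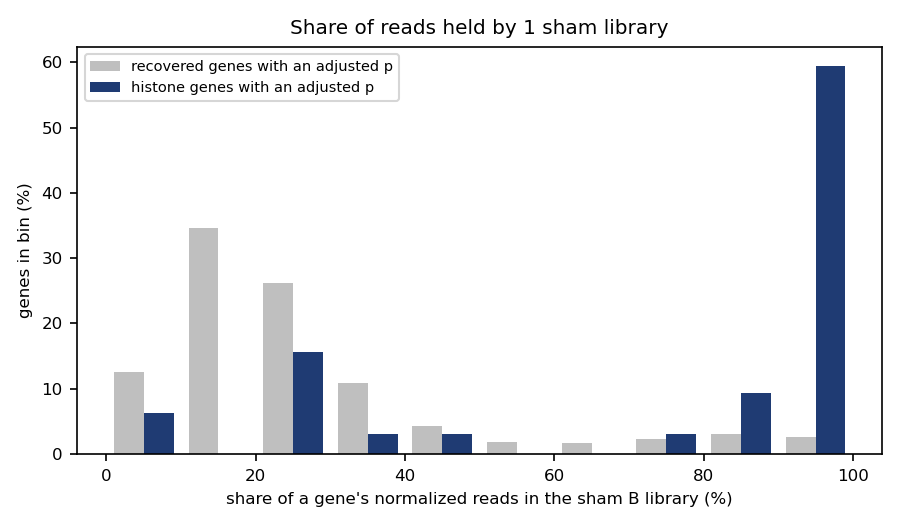
Percent of genes (vertical axis) in each 10% bin of the share of normalized reads held by sham library B (horizontal axis), for 6196 recovered genes and the 32 histone genes with an adjusted p. The top bin holds 59.4% of the histone genes and 2.55% of the recovered genes.

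Leaving out sham library B was bound to shrink the difference, since 22 of 32 tested members had at least 80% of their reads there. The fits on recovered reads in limma are therefore given as a description. The median log2 difference over members, -2.30 in limma with all 5 libraries, turned to 0.25 over the 31 members left, against -0.18 and -0.11 over all genes fitted, and 20 of the 31 were positive. Without sham library A the median was -5.19 over members, against -0.16 over all genes fitted. Both fits have a single sham library, which is assumed to vary as the other group does. With all 5 libraries limma called 0 of 32 members and 0 of 6196 genes, with 1 member lower and 1 higher at an unadjusted p below 0.05, whereas the authors' deposited test called 5 and 1. None of the 5 calls held against a fold of 1.5. In these single-library fits 1 member, Hist1h2al, was called higher without sham library B and 1 without A, against 1.11% and 5.94% of genes.

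Hist1h2al was the single member called higher. It is an H2A gene that the annotation lists as a processed pseudogene, at chr13:51202727-51203065 on the minus strand, away from the Hist1 cluster. It had 36, 59 and 34 reads in the stroke libraries, 2 in sham library A and 0 in sham library B. Every stroke library lay above both sham libraries, as in 9.73% of recovered tested genes. Its log2 fold change was 5.02 ± 1.24 (SE) in the authors' deposited table, at an adjusted p of 0.00863. Without sham library B the log2 difference was 3.60 (SE 0.48, adjusted p = 0.00611, limma), and without sham library A it was 5.24 (SE 0.52, adjusted p = 0.000617, limma). With all 5 libraries limma gave 4.42 (SE 0.73, adjusted p = 0.399), and without any 1 stroke library 4.17 to 4.55 (adjusted p from 0.814 to 0.989). These 4 fits called 0 of 6196 genes, so the missed threshold says nothing particular about Hist1h2al, and the difference kept its size. Only 32.4% of its 50-base stretches occur in no other gene's transcript, so reads from near-identical sequence cannot be told apart.

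Members with reads but no adjusted p leaned the same way at low depth. Fold changes were negative for 25 of these 26, and 17 had at least 80% of their reads in sham library B. The shares over other genes without an adjusted p were not taken, so these counts have no background. At so few reads a high share in 1 library is reached more easily. Hist1h4j had 1, 4 and 4 reads in stroke, 4 in sham library A and 24 in sham library B, and Hist1h2ac had 4, 6 and 2 against 3 and 18. For Hist1h2bn, Hist1h3i, Hist1h3g and Hist1h2ab sham library B had 20, 23, 14 and 14 reads, sham library A 0, and no stroke library more than 4. The other 20 had 1 to 12 reads in sham library B and 0 to 2 in any other. The 1 positive fold change was that of Hist1h2bp, which had 0, 2 and 1 reads in stroke against 0 and 1. Over 9 members, tested or not, every read came from sham library B, a count also without a background over other genes.

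The 10 members without a read were mostly near-identical copies. In 8 of them at most 11.3% of 50-base stretches occur in no other gene's transcript, against a median of 68.3% in tested members. The other two, Hist1h2aa and Hist1h2ba, had 76.2% and 61.8%, and encode histones known from the testis. For these no read was found although most of their sequence is their own.

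No tested gene of histone supply or of the cell cycle was called. None of 21 tested genes of histone mRNA processing was called, with a median log2 fold change of -0.03 over the authors' deposited table. For those with the largest means, Sympk and Fip1l1, which encode parts of the cleavage machinery, the authors' deposited table gave log2 fold changes of -0.05 ± 0.23 and 0.02 ± 0.24 (SE). Slbp, named for its role after its values were seen, had 409, 394 and 476 reads in stroke against 293 and 330 in sham. After division by the size factors its groups overlapped, and its log2 fold change was -0.01 (SE 0.28) in the authors' deposited table. None of 18 histone chaperone genes was called (median -0.00 over the authors' deposited table), with Atrx at -0.15 (SE 0.38) and Nap1l1 at 0.51 (SE 0.35).

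None of 19 tested S phase genes and none of 12 mitosis genes was called. Their medians were 0.13 and -0.00 over the authors' deposited table, against -0.02 over all tested genes. For Pcna, the replication clamp, and Rrm1, a ribonucleotide reductase subunit, the authors' deposited table gave log2 fold changes of 0.37 ± 0.37 and -0.03 ± 0.26 (SE). Mki67, the Ki-67 gene, had 123, 184 and 199 reads in stroke, 59 in sham library A and 151 in sham library B. Tpx2, a spindle gene, had 70, 95 and 87 against 60 and 86. In normalized reads sham library B was the highest for both, at 206 against at most 178 for Mki67 and 117 against at most 84.0 for Tpx2. Summed over the 18 recovered S phase genes, sham library B had 2748 normalized reads, against 2037 in sham library A and 2415 to 2583 in the stroke libraries. For the 14 mitosis genes it had 758, against 400 in sham library A and 418 to 673 in stroke. It was the highest library for both lists, by far less than for the histone genes.

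Replication-independent histone genes, whose messages are mostly polyadenylated, did not share the pattern where their reads per library were recovered. Of 11 tested, H3f3b, which encodes the variant H3.3, was called higher, with 0.90 ± 0.25 (SE) as its log2 fold change in the authors' deposited table, at an adjusted p of 0.0282. H1f0, the replacement linker histone, had -0.03 (SE 0.24) there. Over the 4 with recovered reads, sham library B had 823 normalized reads, below the 1021 of sham library A and the 989 to 1032 of the stroke libraries. H1foo, among these 4, had only 1 read.

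Of 6 other RNAs that lack a poly(A) tail with an adjusted p, 3 were called lower: Rn7sk, the 7SK RNA, Rpph1, the RNA of RNase P, and Rmrp, that of RNase MRP. The authors' deposited table gave log2 fold changes of -9.28 ± 2.14, -9.20 ± 2.47 and -8.66 ± 2.34 (SE), with adjusted p-values of 0.00352, 0.0211 and 0.0224. Their reads per library were not recovered, so it is not known which sham library they were high in. Rnu11, Rny1 and Rny3 were not called (adjusted p = 0.539, 0.671 and 0.279 in the authors' deposited table). Rny3, a Y RNA chosen after its values were seen, had 21, 8 and 3 reads in stroke, 1 in sham library A and 500 in sham library B. Over the 7 with recovered reads the sums were 44.1, 25.6 and 8.96 normalized reads in stroke, 1.06 in sham library A and 1096 in sham library B, and 6 of the 7 were highest there. Vaultrc5, with at most 2 reads in any library, was not. The part of such RNA in the histone result was not tested.

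**Figure D4:**
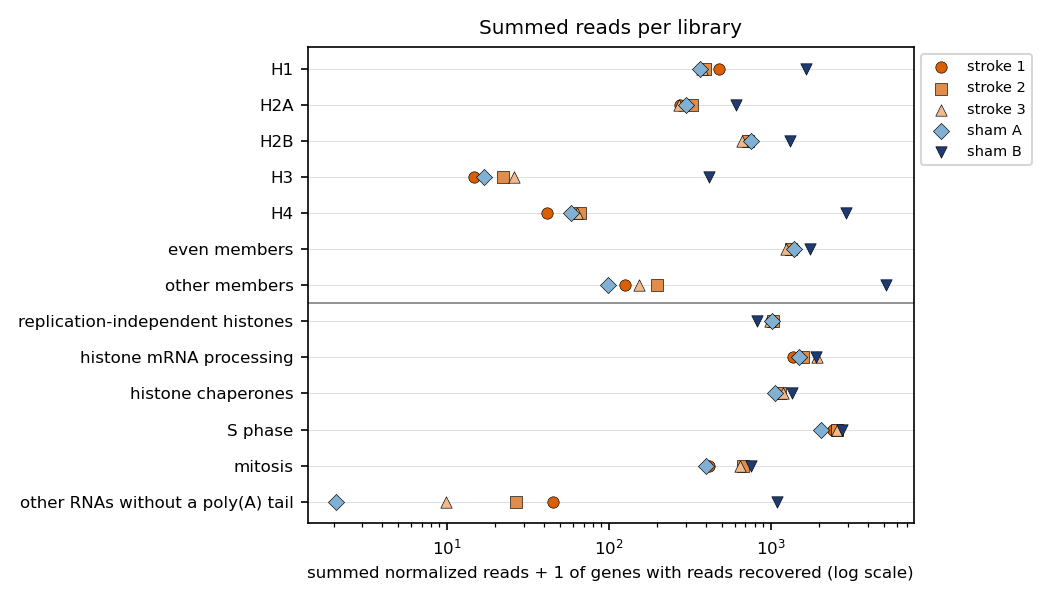
Summed normalized reads plus 1 (horizontal log axis) in each library for the 5 histone classes, for the 6 even and the 62 other members, and below the line for related lists, over genes with recovered reads. Sham library B is the highest library in all 5 histone classes, least so for H2A (612 against at most 324) and H2B (1315 against at most 756), and far above the rest for RNAs without a poly(A) tail.

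Of 4 markers each of neurons, astrocytes and microglia none was called, with list medians of 0.13, 0.01 and 0.28 over the authors' deposited table. Snap25 and Syt1 (neurons), Slc1a2 and Gfap (astrocytes), and Csf1r and Cx3cr1 (microglia) were all measured. Their mean normalized reads ran from 669 for Cx3cr1 to 102020 for Slc1a2 in the authors' deposited table. Reads per library were recovered for 2 microglia markers, P2ry12 and Tmem119, and for none of neurons and astrocytes. Summed, the 2 had 346 normalized reads in sham library B, the lowest, against 799 in sham library A and 411 to 857 in stroke. The part of cell makeup in the histone result was not tested. Red cell genes did differ, in the other sham library. Of 5 tested, all were called lower, with Hbb-bs, Hba-a1, Alas2 and Hba-a2 between -3.86 and -3.50 in the authors' deposited table. All 6 recovered red cell genes together had 2819 normalized reads in sham library A, 478 in sham library B and 69.0 to 234 in stroke. The part of blood in the histone values was not tested, and the library with most red cell reads was the one with reads of the fewest histone genes.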

How the data were processed

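RNA was sequenced from 2 sham and 3 stroke libraries made with a stranded KAPA kit that captures polyadenylated RNA, per the labels' protocols. The authors aligned with STAR 2.5.2b to GRCm38, counted with featureCounts 1.5.1 and tested with DESeq2 1.14.1, per the submitters' processing notes, which also list FastQC. The sources used here give neither the annotation release, nor the strand setting, nor the rule for multiply aligned reads. The authors' signal for a gene is its mean size-factor normalized count, per the file headers. The authors also deposited log2 fold changes, their standard errors, a Wald score, its p-value and the Benjamini-Hochberg adjusted p-value. Positive values mean higher in stroke: genes with 1 read in 1 library took 3 positive and 2 negative values.

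The main results are the authors' tests at an adjusted p below 0.05. Reads per library were searched for with numba 0.67.0 in Python 3.11.15, refitting the authors' model to within 1e-09 of the deposited log2 fold change. All 20427 genes tried gave 1 answer, 3 of them, Hist1h4d included, at a tolerance of 0.0002 because that fit had not converged. Of 500 genes with a mean shifted on purpose, 1 was accepted. The search was tested on simulated data. Recovered reads of 6196 genes entered limma 3.58.1 (R 4.3.3; trend, robust) as log2 of normalized reads plus a pseudocount of 1 or 0.5, also without each library. Stem-loops, poly(A) signals and stretches found in other genes were read from GENCODE M21 transcripts.

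The members, and the lists of related genes and cell type markers, were chosen with earlier results of these data known. Every called or tested member is named, with the 6 most abundant untested ones. Of each other list the called genes (up to 4) and the 2 with the largest mean are named. Other names were chosen after their values were seen. One list of cell type markers is not reported here.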

Additional observations from a re-analysis of the deposited data

How the results depend on the processing

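The calls and the direction rest on few reads and on 1 sham library. The count of members called lower, 5 in the authors' deposited test (DESeq2), was 3 when p-values were adjusted over all genes that had a read. It was 0 when only means of 132.4 normalized reads or more entered (which leaves 5 members to test), 0 against a fold of 1.5, and 0 in limma with a pseudocount of 1 or 0.5, where no gene was called. The count called higher, 1, was 0 in these settings except the first, where it stayed 1. The cutoff on means left out every called member, so the loss of those calls was fixed in advance. Hist1h4d, among the 5 members left, could still have been called lower and was not. Hist1h4h had the largest mean of the called members, at 65.6. With 1 library left out in turn, limma called 0 to 24 members lower and 0 to 1 higher. Every count above 0 came from a fit with a single sham library, and the 24 from the fit without sham library A. Many genes outside the histone list were also called lower in that fit, so the 24 is given only as a description. The median log2 fold change of -4.51 was -0.25 over the 5 members with means of 132.4 normalized reads or more. With 1 library left out it ran from -5.13 to 0.36, positive only without sham library B. It was -3.54 over every member with a read and -4.16 on mean recovered reads. With Hist1h4f at its bound, an alternative chosen after seeing the data, it was -4.51. Without Hist1h1c the summed normalized reads were 1059, 1165 and 1039 in the stroke libraries, 1141 in sham library A and 6334 in sham library B.

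Of the single genes, 20 turned direction without sham library B and 0 in any other setting run. Their log2 differences with 1 library left out ran as follows: Hist1h1a -6.89 to 1.23, Hist1h1b -5.44 to 0.067, Hist1h1c -0.58 to 0.15, Hist1h1d -5.42 to 0.61, Hist1h1e -5.38 to 0.25, Hist1h2ak -5.32 to 0.79, Hist1h2bg -4.11 to 0.78, Hist1h3e -5.99 to 1.23, Hist1h3f -6.22 to 0.63, Hist1h4a -5.26 to 0.60, Hist1h4b -4.72 to 0.80, Hist1h4d -8.51 to 1.84, Hist1h4h -5.13 to 0.45, Hist1h4k -5.23 to 0.026, Hist2h2ab -5.14 to 0.91, Hist2h2ac -5.55 to 0.61, Hist2h2bb -5.86 to 1.60, Hist2h3c2 -0.10 to 1.78, Hist3h2ba -0.35 to 0.056 and Hist3h2bb-ps -3.95 to 0.43. Most of these genes had few reads in the libraries left without sham library B, and many turns were small beside their error. The log2 difference there was 0.026 (SE 0.97) for Hist1h4k, 0.067 (SE 0.99) for Hist1h1b and 0.056 (SE 0.23) for Hist3h2ba. The largest was 1.84 (SE 0.82) for Hist1h4d. Such a change of sign is not a rise in stroke. No paired analysis was possible because no value in the table can be assigned to a numbered replicate. The cause of sham library B's excess was not tested.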
